A study of Mus musculus with 24 samples.

Results

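Adam11, Tmem28, Themis, Obp2a, Adgrf1 and Fabp5 are 6 protein-coding genes of the mouse selected on their measured RNA difference between diets in liver, in 1 or both of 2 strains. They are 6 of the 53677 gene identifiers measured, and all 6 were among the 14533 genes with enough counts to be tested. The study sequenced RNA from 24 livers, 1 library per mouse, in 4 groups: 129S1/SvImJ on high-fat diet (HFD, 6 mice), 129S1/SvImJ on chow (5 mice), C57BL/6J on HFD (7 mice) and C57BL/6J on chow (6 mice). Both are inbred strains in common laboratory use, no transgene or other allele is named, and the labels give neither the age and sex of the mice nor what the diet held or how long it was fed. Since the genes were chosen by their diet differences, those differences are described here without a test. Tests are given for the strain differences, which were not part of the choice but use the same libraries.

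The genes belong to no common textbook pathway, and several are best known from tissues other than the liver. Adam11 belongs to the ADAM family of membrane proteins but lacks the protease activity of its relatives, and it is known from neurons. Tmem28 encodes a membrane protein of the FAM155 family, relatives of a subunit of the NALCN sodium leak channel. Themis encodes an adaptor that developing T cells need for selection in the thymus, where it acts with Grb2. Obp2a encodes an odorant-binding protein of the lipocalin family, small secreted carriers of greasy ligands. Adgrf1 encodes an adhesion G protein-coupled receptor, also called GPR110, which binds synaptamide, an amide of docosahexaenoic acid. Fabp5 encodes the fatty acid-binding protein first described in epidermis, so by its textbook role it is not outside lipid biology, and the same holds in part for the lipid carrier family of Obp2a.

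On mm10 in GENCODE M21, all 6 genes lie on the plus strand. Adam11 (ENSMUSG00000020926.16) spans chr11:102761439-102780262, and Tmem28 (ENSMUSG00000071719.2) spans chrX:99821021-99848790. Themis (ENSMUSG00000049109.15) spans chr10:28668360-28883818, and Obp2a (ENSMUSG00000062061.3) spans chr2:25700043-25703326. Adgrf1 (ENSMUSG00000041293.5) spans chr17:43270329-43324737, and Fabp5 (ENSMUSG00000027533.10) spans chr3:10012548-10016607. Only Themis overlaps other annotated genes, and the pair of opposite-strand pseudogenes there held 9 counts in all 24 libraries, against 2704 for Themis. Fabp5 is the only one with near-identical copies: 5 other annotated genes match its transcripts at 90% identity or more over at least 200 bases, and they held 24 counts against 5578 for Fabp5.

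RefSeq promoters (GRCm38.p6, 250 bases before to 50 bases after the start) were found for 4 of the 6 genes, Obp2a, Tmem28, Themis and Adgrf1. Those of Obp2a (chr2:25699824-25700123, plus strand) and Tmem28 (chrX:99819914-99820213, plus strand) are shown because these were the pair with a positive correlation between livers, described further on. Both sequences are of the C57BL/6J reference, and capitals mark a TATA box, TATAAA.
Obp2a: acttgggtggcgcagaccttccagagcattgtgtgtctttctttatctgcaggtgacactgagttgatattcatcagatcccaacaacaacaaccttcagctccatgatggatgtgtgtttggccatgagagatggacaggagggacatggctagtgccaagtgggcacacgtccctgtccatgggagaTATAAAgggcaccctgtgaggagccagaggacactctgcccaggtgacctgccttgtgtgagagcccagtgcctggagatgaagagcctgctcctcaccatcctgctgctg
Tmem28: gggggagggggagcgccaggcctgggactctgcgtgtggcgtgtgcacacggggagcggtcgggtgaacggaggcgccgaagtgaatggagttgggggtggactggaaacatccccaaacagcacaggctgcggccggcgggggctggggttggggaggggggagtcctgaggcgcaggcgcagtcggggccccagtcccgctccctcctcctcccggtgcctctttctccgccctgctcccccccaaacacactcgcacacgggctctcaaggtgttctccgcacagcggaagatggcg
The TATAAA of Obp2a starts 30 bases before the GENCODE start of the gene. The RefSeq start that sets the window shown lies after the GENCODE start, so the motif is more than 30 bases before it. The window shown for Tmem28 ends at chrX:99820213, before the GENCODE start of that gene at chrX:99821021, so it lies outside the GENCODE span of the gene. Of 32851 RefSeq promoters, 13.6% hold this motif on either strand. None of the 5 promoters of these genes (Themis has 2) held a direct repeat of AGGTCA with 1 or with 4 bases between the copies, the TCF/LEF motif CTTTGAT or the E box CACGTG on either strand. Those motifs are present in 0.0396%, 0.0152%, 3.73% and 7.15% of all promoters. The Tmem28 promoter had 70.0% G and C and the Obp2a promoter 54.0%, beside a median of 52.7% over all promoters.

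Levels are given as CPM, the usual depth-scaled count, computed on the library size that edgeR adjusts. Libraries held 6707013 to 13124881 counts. The hepatocyte markers Alb, Ttr and Hnf4a had group means of at least 611 CPM in all 4 groups. The small nuclear RNA 7SK ran from 2100 to 7260 CPM, and results that differ between libraries of low and high 7SK are given below with both values. Mouse identifiers carry a number whose meaning the labels do not give. Each group holds 2 such numbers and no number occurs in more than 1 group, so the groups could be compared only over both numbers, and relations between livers are given within numbers too.

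Adam11 was higher on HFD in every mouse of both strains, and its spread between mice was narrow, with a coefficient of variation of 10.5% to 34.1% over the groups. In 129S1/SvImJ its level was 135 CPM in the lowest liver, 191 at the median and 214 in the highest on HFD, against 33.1, 32.7, 41.8, 34.3 and 35.4 CPM on chow. In C57BL/6J the lowest, median and highest livers had 44.8, 83.2 and 136 CPM on HFD and 8.62, 13.6 and 15.6 CPM on chow. The diet groups did not overlap in either strain, and the means were 5.27-fold higher on HFD in 129S1/SvImJ and 6.79-fold higher in C57BL/6J. On the log2 scale the fitted difference was 2.40 ± 0.21 (SE) in 129S1/SvImJ and 2.77 ± 0.21 in C57BL/6J.

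**Figure D1:**
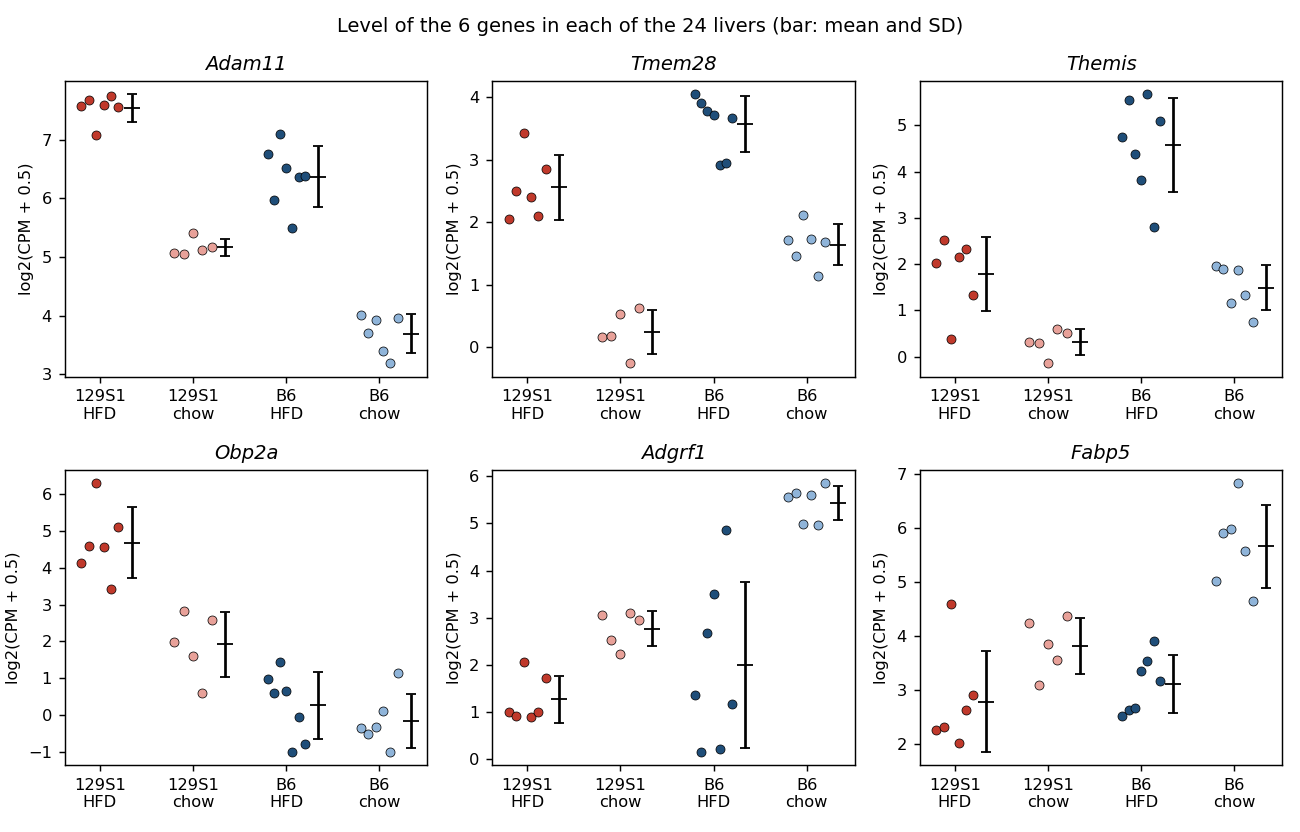
Level of each gene, as log2(CPM + 0.5), in each of the 24 livers, with 1 point per liver and the mean and SD of the group beside the points. Adam11 and Tmem28 are higher on HFD in both strains with no overlap, and the widest spread is that of Adgrf1 in C57BL/6J on HFD, from 0.609 to 28.7 CPM.

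Tmem28 was a low-abundance transcript that was higher on HFD in every mouse of both strains. Its lowest, median and highest levels in 129S1/SvImJ were 3.64, 4.97 and 10.3 CPM on HFD, against 0.618, 0.628, 0.944, 0.337 and 1.05 CPM on chow. In C57BL/6J they were 7.05, 12.7 and 16 CPM on HFD and 1.71, 2.75 and 3.84 CPM on chow. The log2 difference was 3.00 ± 0.36 in 129S1/SvImJ and 2.15 ± 0.25 in C57BL/6J. The chow livers of 129S1/SvImJ held only 3 to 8 counts each, which limits the precision of the first value. On the deposited variance-stabilized scale, which compresses low levels, the difference was 1.38 in each strain.

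Themis had its highest level in C57BL/6J on HFD. There the lowest, median and highest livers had 6.52, 26.4 and 50.4 CPM, against 1.18, 2.58 and 3.38 CPM on chow, with no overlap. In 129S1/SvImJ the same values on HFD were 0.809, 3.74 and 5.25 CPM, and the chow livers had 0.742, 0.733, 0.405, 1.01 and 0.919 CPM. The groups of 129S1/SvImJ overlapped through 1 HFD liver, replicate 3. The log2 difference was 2.14 ± 0.67 in 129S1/SvImJ and 3.53 ± 0.43 in C57BL/6J, or 0.85 and 2.36 on the variance-stabilized scale.

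Obp2a was in the main a transcript of 129S1/SvImJ. In that strain the lowest, median and highest HFD livers had 10.3, 23.4 and 78.0 CPM, against 3.46, 6.60, 2.56, 1.01 and 5.51 CPM on chow, with no overlap. In C57BL/6J the values were 0, 1.02 and 2.23 CPM on HFD and 0, 0.296 and 1.69 CPM on chow, and the groups overlapped over nearly their whole range. In a fit to the C57BL/6J groups alone, Obp2a did not pass the filter on low counts. A count of 0, found in replicate 5 of each C57BL/6J group, allows up to 0.246 CPM on HFD and 0.233 CPM on chow (3 counts, counting error only). The log2 difference was 3.00 ± 0.58 in 129S1/SvImJ and 0.76 ± 0.95 in C57BL/6J. The value in C57BL/6J was 1.67 without chow replicate 6, and it was 2.72 ± 1.49 within libraries of low 7SK and -0.08 ± 1.03 within those of high 7SK, so a diet difference of Obp2a was not resolved in C57BL/6J at this depth.

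Adgrf1 and Fabp5 were lower on HFD. Adgrf1 in C57BL/6J had 0.609, 2.08 and 28.7 CPM in the lowest, median and highest HFD livers and 30.7, 47.4 and 57.4 CPM in the chow livers. In 129S1/SvImJ the corresponding HFD values were 1.36, 1.5 and 3.69 CPM, against 7.79, 5.23, 4.18, 8.09 and 7.22 CPM on chow. The diet groups overlapped in neither strain, with log2 differences of -1.71 ± 0.78 in 129S1/SvImJ and -2.69 ± 0.55 in C57BL/6J. The spread within C57BL/6J on HFD was 47.1-fold from the lowest to the highest liver, against 1.87-fold on chow. Without HFD replicate 6, the highest of that group, the mean of the C57BL/6J HFD livers was 3.65 ± 4.05 CPM (SD, n = 6) and the log2 difference -3.61 ± 0.44.

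Fabp5 in C57BL/6J had 5.21, 8.46 and 14.6 CPM in the lowest, median and highest HFD livers, against 24.6, 53 and 112.7 CPM in the chow livers. In 129S1/SvImJ the HFD values were 3.58, 5.08 and 23.5 CPM, and the chow livers had 18.3, 8.06, 14.0, 11.2 and 20.2 CPM. The diet groups did not overlap in C57BL/6J and did in 129S1/SvImJ, where HFD replicate 3 lay above every chow liver and the other 5 HFD livers lay below all of them. The log2 difference was -2.71 ± 0.42 in C57BL/6J and -0.82 ± 0.49 in 129S1/SvImJ, which became -1.55 ± 0.42 without replicate 3.

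Over the 6 genes, the diet groups did not overlap for 4 in 129S1/SvImJ and for 5 in C57BL/6J. Of all genes tested, 7.73% did not overlap in 129S1/SvImJ and 3.89% in C57BL/6J, but nothing can be read from this contrast because it chose the genes. The gap between the diet differences of the strains (129S1/SvImJ minus C57BL/6J), again a description, was 2.24 ± 1.17 for Obp2a, 1.89 ± 0.64 for Fabp5, 0.97 ± 0.97 for Adgrf1, 0.85 ± 0.46 for Tmem28, -0.37 ± 0.28 for Adam11 and -1.39 ± 0.89 for Themis on the log2 scale. Without 129S1/SvImJ HFD replicates 3 and 6 the value of Fabp5 was 1.05 ± 0.55, and on the variance-stabilized scale that of Tmem28 was -0.01.

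Between strains, Adam11, Tmem28 and Obp2a differed on both diets, Adgrf1 and Fabp5 passed the test on chow and Themis passed it on HFD. On chow, Adam11 was 2.79-fold and Obp2a 7.51-fold higher in 129S1/SvImJ than in C57BL/6J, and Adgrf1, Fabp5 and Tmem28 were 6.76-fold, 3.92-fold and 3.76-fold lower. These 5 of 6 passed an adjusted p of 0.05 (edgeR quasi-likelihood test, two-sided, Benjamini-Hochberg over all genes), beside 25.0% of all genes tested. The groups whose diet differences chose the genes are also the groups compared here. The count passing is therefore not read against the share of all genes. Adam11 averaged 35.5 ± 3.71 CPM in 129S1/SvImJ and 12.7 ± 2.88 CPM in C57BL/6J (SD, n = 5 and 6), a log2 difference of 1.48 ± 0.22 with an edgeR adjusted p of 2.1e-05. Adgrf1 averaged 6.50 ± 1.71 CPM in 129S1/SvImJ and 44.0 ± 10.7 CPM in C57BL/6J, a log2 difference of -2.75 ± 0.63 with an edgeR adjusted p of 0.0027.

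On the same diet, Tmem28 differed by -1.91 ± 0.39 (edgeR adjusted p = 0.000491), Fabp5 by -1.98 ± 0.46 (edgeR adjusted p = 0.00281) and Obp2a by 2.86 ± 0.83 (edgeR adjusted p = 0.013). Obp2a passed the filter on low counts through its level in 129S1/SvImJ. Without that filter its difference on chow was 2.85 ± 0.85 (edgeR adjusted p = 0.0307). Themis averaged 0.762 ± 0.232 CPM in 129S1/SvImJ and 2.45 ± 0.927 CPM in C57BL/6J with no overlap, yet its difference of -1.65 ± 0.70 did not pass (edgeR adjusted p = 0.0889). DESeq2 gave it an adjusted p of 0.00883. Of the 6, only Obp2a overlapped between the strains on chow, while 15.1% of all genes tested had no overlap. The choice of the genes affects this comparison too. Within libraries of one 7SK side, 3 of these calls were lost: Obp2a at 0.97 ± 1.19 and Adgrf1 at -2.87 ± 1.20 in high 7SK (edgeR adjusted p = 0.706 and 0.192), and Fabp5 at -1.58 ± 0.62 in low 7SK (edgeR adjusted p = 0.156). On the other side the values were 5.02 ± 1.02, -2.65 ± 0.68 and -2.41 ± 0.61 (edgeR adjusted p = 0.0159, 0.0487 and 0.0327).

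On HFD, 4 of the 6 genes passed the same edgeR test between strains, beside 37.0% of all genes. As on chow, the choice by diet used the groups compared, so this count is not read against that share. Obp2a averaged 30.9 ± 24.4 CPM in 129S1/SvImJ and 0.909 ± 0.80 CPM in C57BL/6J (n = 6 and 7), 34-fold higher, with no overlap and a log2 difference of 5.10 ± 0.60 (edgeR adjusted p = 7.87e-07). The size of this difference is imprecise, because the C57BL/6J livers on HFD held only 0 to 22 counts of Obp2a each. Obp2a did not pass the filter on low counts in the C57BL/6J groups alone, so it was tested through its level in 129S1/SvImJ. Without that filter the difference on HFD was 5.12 ± 0.61 (edgeR adjusted p = 1.74e-06). Themis averaged 3.35 ± 1.65 CPM in 129S1/SvImJ and 28.2 ± 16.3 CPM in C57BL/6J, 8.42-fold lower, also with no overlap, a log2 difference of -3.04 ± 0.41 (edgeR adjusted p = 4.73e-06). Adam11 was 2.16-fold higher, 1.11 ± 0.18 on the log2 scale (edgeR adjusted p = 4.27e-05), and Tmem28 2.07-fold lower, -1.06 ± 0.23 (edgeR adjusted p = 0.000638), both with an overlap of single livers; 15.1% of all genes had no overlap on HFD. The Tmem28 difference was -0.84 ± 0.31 within low 7SK (edgeR adjusted p = 0.106) and -1.29 ± 0.27 within high 7SK (edgeR adjusted p = 0.0024).

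The 2 genes that were lower on HFD did not pass between strains on that diet. Adgrf1 averaged 2.04 ± 0.976 CPM in 129S1/SvImJ and 7.22 ± 10.2 CPM in C57BL/6J, a log2 difference of -1.78 ± 0.71 (edgeR adjusted p = 0.0536). Leaving out single libraries moved that value between -2.06 and -0.85 and its edgeR adjusted p between 0.0251 and 0.242, and the weakest value came without C57BL/6J HFD replicate 6. Fabp5 averaged 8.09 ± 7.63 CPM in 129S1/SvImJ and 8.66 ± 3.43 CPM in C57BL/6J, a log2 difference of -0.09 ± 0.46 (edgeR adjusted p = 0.898). Without 129S1/SvImJ HFD replicate 3 the Fabp5 difference was -0.81 (edgeR adjusted p = 0.118).

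**Figure D2:**
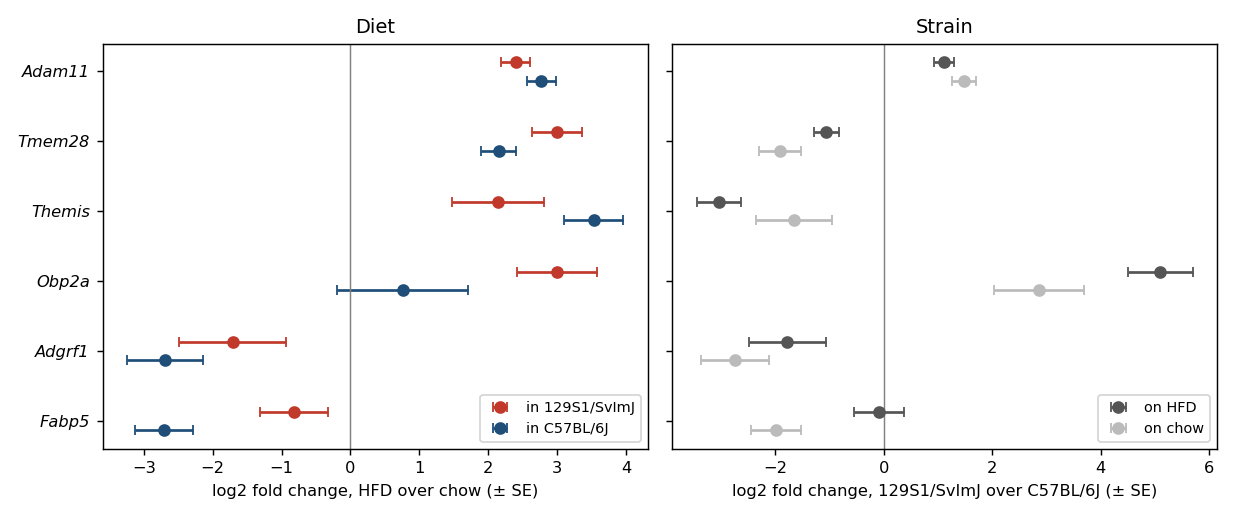
Fitted log2 fold changes with their SE for the 6 genes, HFD over chow in each strain (left) and 129S1/SvImJ over C57BL/6J on each diet (right). Obp2a is the only gene whose SE bar for diet reaches 0 in C57BL/6J, and Fabp5 the only one whose bar for strain reaches 0 on HFD.

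Ordered by group mean, the 6 genes followed different sequences. Adam11 ran from 129S1/SvImJ on HFD through C57BL/6J on HFD and 129S1/SvImJ on chow to C57BL/6J on chow, and only the first pair of neighbours overlapped. Tmem28 and Themis both ran from C57BL/6J on HFD through 129S1/SvImJ on HFD and C57BL/6J on chow to 129S1/SvImJ on chow. In Tmem28 the upper 2 pairs of neighbours overlapped, and in Themis only the middle pair. Obp2a had both 129S1/SvImJ groups above both C57BL/6J groups by mean, with an overlap between 129S1/SvImJ on chow and C57BL/6J on HFD. Adgrf1 and Fabp5 were highest in C57BL/6J on chow, apart from every other group. In both the middle pair of neighbours overlapped, and the last pair overlapped in Fabp5 but not in Adgrf1. Per kilobase of exon, mean levels in 129S1/SvImJ on HFD were 41.6 CPM for Obp2a and 33.0 for Adam11, against 2.27 for Fabp5, 1.46 for Tmem28, 0.530 for Adgrf1 and 0.287 for Themis. In C57BL/6J on HFD they were 15.3 for Adam11, 3.03 for Tmem28, 2.43 for Fabp5, 2.41 for Themis, 1.88 for Adgrf1 and 1.22 for Obp2a.

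In 129S1/SvImJ on HFD, replicate 3 was the highest or lowest of the 6 livers for all 6 genes, and replicate 6 was second from the same end for all 6. How often these livers stood there over all genes was not computed. The pattern is therefore not read as particular to the 6 genes. Replicate 3 had the lowest Adam11 (135 CPM) and Themis (0.809 CPM) and the highest Tmem28 (10.3 CPM), Obp2a (78.0 CPM), Adgrf1 (3.69 CPM) and Fabp5 (23.5 CPM). For Adam11, Themis, Adgrf1 and Fabp5 that is on the side of the chow livers, whereas for Tmem28 and Obp2a it is the side away from them. Without replicate 3, the diet differences in 129S1/SvImJ were 2.48 for Adam11, 2.74 for Tmem28, 2.35 for Themis, 2.47 for Obp2a and -2.00 for Adgrf1 on the log2 scale. In C57BL/6J on HFD, replicate 6 had the lowest Themis (6.52 CPM) and the highest Adgrf1 (28.7 CPM) and Fabp5 (14.6 CPM), each on the side of the chow livers.

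**Figure D3:**
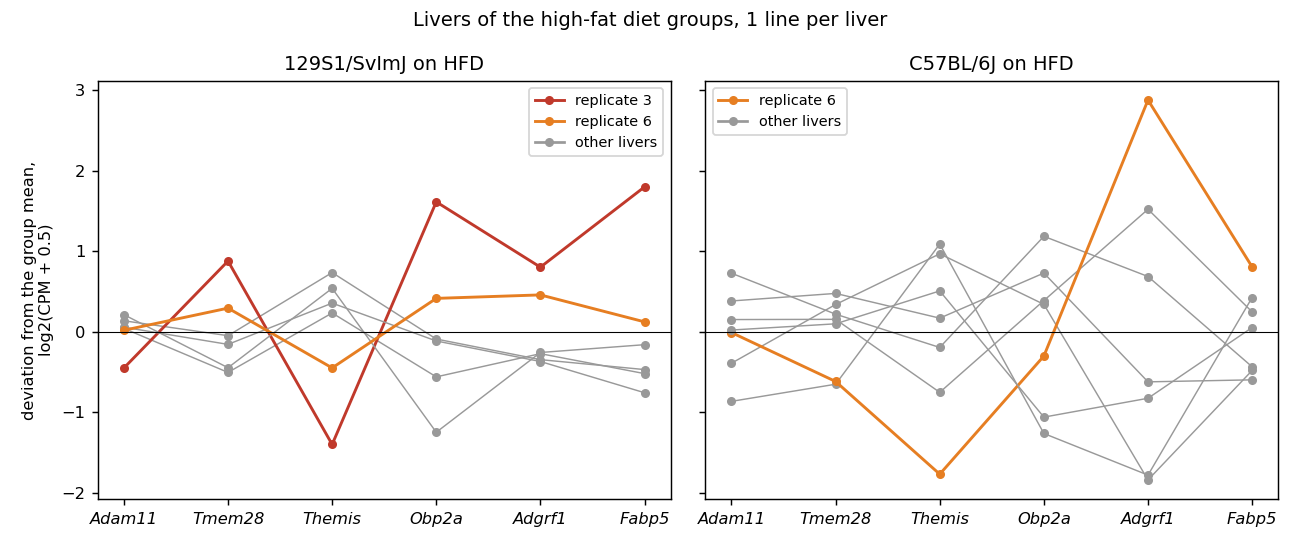
Deviation of each HFD liver from its group mean, in log2(CPM + 0.5), for the 6 genes, with 1 line per liver. Replicate 3 of 129S1/SvImJ is at an end of its group for all 6 genes, and replicate 6 of C57BL/6J for Themis, Adgrf1 and Fabp5.

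Deviations of the livers from their group means were compared for the 15 pairs of genes over 24 livers, a comparison chosen after the values were seen. Themis and Adgrf1 moved in opposite ways (Pearson r = -0.79, adjusted p = 0.0039; Spearman rho = -0.61, adjusted p = 0.0833, 100000 permutations within groups, two-sided, adjusted over 15 pairs). Tmem28 and Obp2a had a positive relation (r = 0.71, permutation adjusted p = 0.00487; rho = 0.66, adjusted p = 0.0292). Over the 24 livers, Themis with Adgrf1 thus passed by r only and Tmem28 with Obp2a by both measures. The other 13 pairs passed by neither. Some of them had opposite signs in the 2 HFD groups. For Tmem28 with Fabp5, r was 0.87 in 129S1/SvImJ on HFD and -0.89 in C57BL/6J on HFD, and for Adam11 with Obp2a -0.91 and 0.76. Others kept their sign, such as Adgrf1 with Fabp5 (0.91 and 0.51). The pairs that passed had -0.96 and -0.99 (Themis with Adgrf1) and 0.96 and 0.68 (Tmem28 with Obp2a). Without the 2 livers farthest from the median, r was -0.67 for Themis with Adgrf1 and 0.59 for Tmem28 with Obp2a. Within libraries of low and of high 7SK, r was -0.74 and -0.85 for the first pair and 0.83 and 0.59 for the second.

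Split by diet, and with the numbers of the mouse identifiers left aside, both relations passed over the HFD livers and not over the chow livers. Over the 13 HFD livers, r for Themis with Adgrf1 was -0.92 (permutation adjusted p = 6e-04 over 30 relations) and rho -0.86 (permutation adjusted p = 0.0118), with r = -0.92 again without the 2 farthest livers. Over the 11 chow livers r was 0.36 (permutation adjusted p = 0.695) and rho 0.24 (permutation adjusted p = 0.863), with r = 0.86 without the 2 farthest. For Tmem28 with Obp2a, r over the HFD livers was 0.82 (permutation adjusted p = 0.0373) and rho 0.86 (permutation adjusted p = 0.0118), with r = 0.67 without the 2 farthest. Over the chow livers r was 0.51 (permutation adjusted p = 0.499) and rho 0.48 (permutation adjusted p = 0.664), with r = -0.10 without the 2 farthest. The difference between the diets was not tested.

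The relation of Tmem28 with Obp2a did not pass within the numbers of the mouse identifiers, a check chosen after the data were seen. That of Themis with Adgrf1 passed there by r but not by rho over 24 livers, and by both over the HFD livers. In C57BL/6J on HFD, the 4 livers of number 1 had 12.7 to 16 CPM of Tmem28 and 1.02 to 2.23 CPM of Obp2a, and the 3 livers of number 16 had 7.05 to 12.2 CPM and 0 to 0.474 CPM, without overlap. Of the 24 combinations of gene and group, 3 had no overlap between numbers, the other being Themis in 129S1/SvImJ on chow. The share over all genes was not computed, and so few livers per number can fail to overlap by chance. This count is therefore not read as a difference between numbers. With deviations taken from the mean of each number and permuted within it, r for Tmem28 with Obp2a was 0.67 over 24 livers (permutation adjusted p = 0.0887) and rho 0.63 (permutation adjusted p = 0.0921), and over the HFD livers r was 0.71 (permutation adjusted p = 0.405) and rho 0.69 (permutation adjusted p = 0.267). For Themis with Adgrf1, r was -0.82 over 24 livers (permutation adjusted p = 0.0334) and rho -0.65 (permutation adjusted p = 0.0921), and over the HFD livers r was -0.92 (permutation adjusted p = 0.0156) and rho -0.89 (permutation adjusted p = 0.0222).

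**Figure D4:**
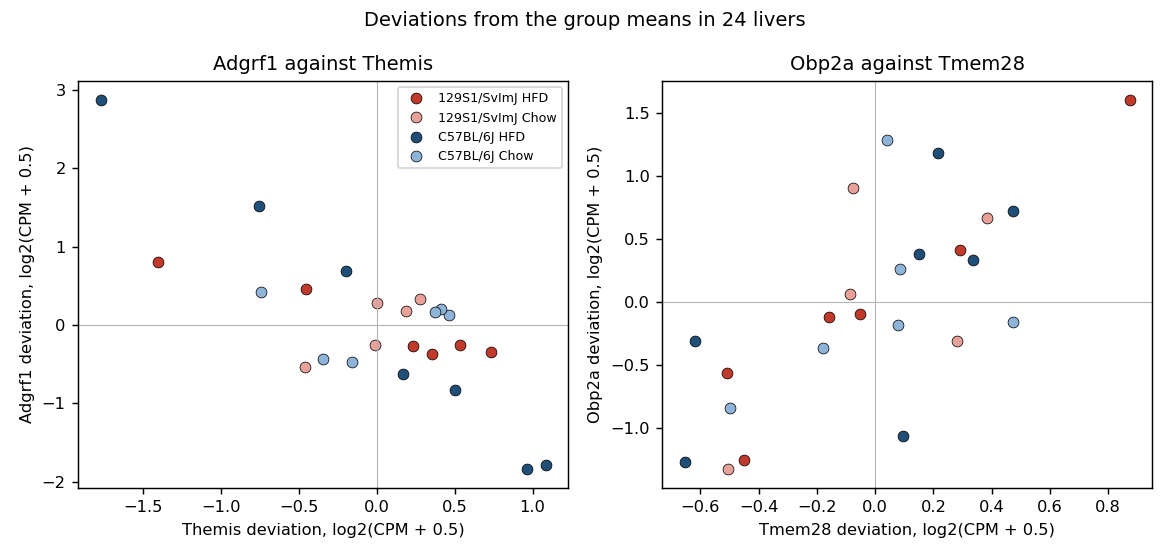
Deviations from the group means, in log2(CPM + 0.5), of Adgrf1 against Themis (left) and Obp2a against Tmem28 (right), with 1 point per liver and the 4 groups in colour. The 13 HFD livers run downward in the left panel (r = -0.92) and upward in the right panel (r = 0.82), and the 11 chow livers do not follow the left-hand trend (r = 0.36).

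Relatives and partners of the 6 genes mostly did not pass the test for diet. None of the 4 genes of the NALCN channel complex was expressed enough to be tested: Nalcn reached at most 0.495 CPM, Unc80 0.17 CPM and Unc79 2.25 CPM in any liver, and Fam155a had 0 counts in all 24 libraries. Of the ADAM proteins and the LGI ligands that bind some of them, 12 of 16 were tested and 0 passed for diet in either strain by edgeR. Their median log2 difference was 0 in 129S1/SvImJ and 0.03 in C57BL/6J. The nearest to the threshold were Adam12 (-0.54 ± 0.28, edgeR adjusted p = 0.229) in 129S1/SvImJ and Adam15 (0.59 ± 0.21, edgeR adjusted p = 0.0579) in C57BL/6J. The median of all genes was between -0.004 and 0.007 for the diet contrasts, and the lists below can be read against 10.4% of genes called for diet in 129S1/SvImJ and 14.9% in C57BL/6J.

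Of the partners and the paralog of Themis, 7 of 8 were tested. In 129S1/SvImJ 0 passed for diet by edgeR, and in C57BL/6J Sos1, a Ras activator, fell by 0.34 ± 0.08 and Plcg1, a phospholipase of receptor signalling, rose by 0.24 ± 0.06 on the log2 scale (edgeR adjusted p = 0.00445 and 0.0103). Grb2, the adaptor bound by Themis, differed by -0.14 in 129S1/SvImJ and -0.04 in C57BL/6J and did not pass. Lck, the T cell kinase, was not expressed enough to be tested, with at most 1.24 CPM. The paralog Themis2 was lower in 129S1/SvImJ than in C57BL/6J, with log2 differences of -1.57 on chow and -1.13 on HFD (edgeR adjusted p = 0.000316 and 0.000957).

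Themis is a T cell gene, so its level was set beside 20 T cell markers. Most of them were too low to be tested, and Zap70, Cd4 and Thy1, which were tested, did not pass for diet in either strain by edgeR (adjusted p of 0.0594, 0.166 and 0.84 in 129S1/SvImJ and 0.66, 0.824 and 0.895 in C57BL/6J). The summed level of all 20 was 10.3 to 22.2 CPM in C57BL/6J on HFD and 11.3 to 18.1 CPM on chow, and 10.3 to 18.9 CPM in 129S1/SvImJ on HFD and 10.1 to 13.5 CPM on chow, so the diet groups overlapped in both strains. No defining marker (Cd3d, Cd3e, Cd3g, Cd8a, Cd4) exceeded 2.96 CPM in any liver. Within C57BL/6J on HFD, the livers in order of Themis level (50.4, 46.3, 33.5, 26.4, 20.4, 13.7 and 6.52 CPM) had marker sums of 10.3, 19, 10.7, 15.3, 13.9, 13.6 and 22.2 CPM. The liver with the most Themis had the lowest sum and the liver with the least had the highest, but the second in Themis was also second in the sum. In bulk tissue, fewer cells of a type and less RNA per cell cannot be told apart.

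**Figure D5:**
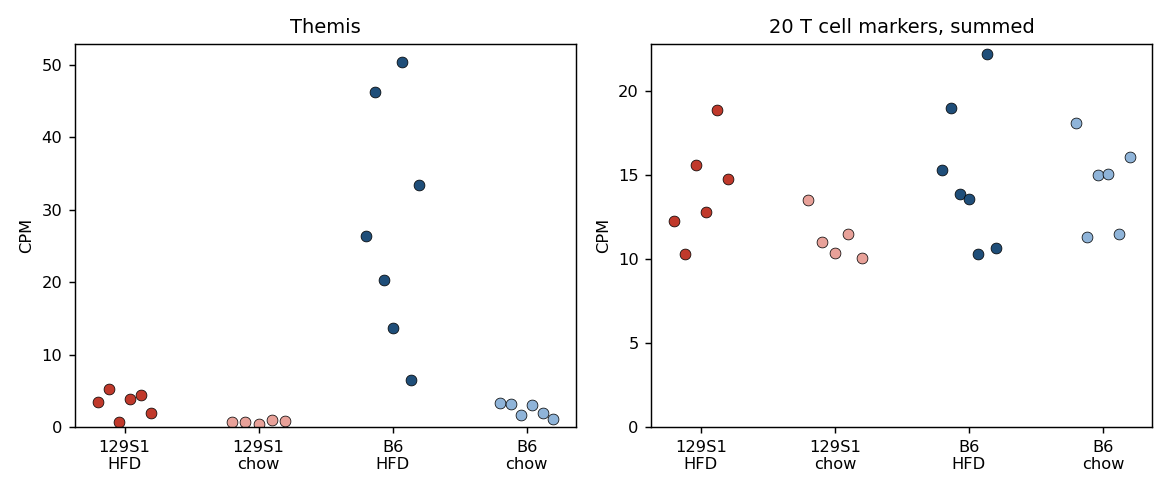
Themis (left) and the summed level of 20 T cell markers (right) in CPM, with 1 point per liver in the 4 groups. Themis in C57BL/6J is 6.52 to 50.4 CPM on HFD and 1.18 to 3.38 CPM on chow, while the marker sums are 10.3 to 22.2 and 11.3 to 18.1 CPM.

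Of 9 lipocalins tested beside Obp2a, Ambp, a plasma protein precursor, rose in 129S1/SvImJ by 0.33 ± 0.09 on the log2 scale (edgeR adjusted p = 0.0144). In C57BL/6J the acute-phase protein gene Orm3 rose by 2.49 ± 0.55, the apolipoprotein gene Apom fell by 1.01 ± 0.13 and the prostaglandin synthase gene Ptgds fell by 1.69 ± 0.45 (edgeR adjusted p = 0.00416, 1.15e-05 and 0.01). Ptgds was low in that strain, at 0.4 ± 0.477 CPM on HFD and 1.18 ± 0.546 CPM on chow. Between strains on HFD 5 of the 9 were higher in 129S1/SvImJ and 0 lower by edgeR, beside 37.0% of all genes called in either direction, with Ptgds at 2.38 ± 0.42 and Apom at 1.01 ± 0.13 (edgeR adjusted p = 6.01e-05 and 7.1e-07). On chow 2 were higher, beside 25.0% of all genes called. The median of the list was 0.42 on HFD and 0.13 on chow, beside 0.005 and 0.01 for all genes.

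Of 16 adhesion G protein-coupled receptors tested beside Adgrf1, 3 passed for diet in 129S1/SvImJ and 1 in C57BL/6J. Celsr1, a cell polarity receptor, fell by 0.79 ± 0.22 and Adgrl2, a latrophilin, by 0.20 ± 0.06 in 129S1/SvImJ, where the leukocyte receptor gene Adgre5 rose by 0.45 ± 0.13 (edgeR adjusted p = 0.0204, 0.044 and 0.0281). In C57BL/6J Adgrg6 rose by 0.58 ± 0.19 (edgeR adjusted p = 0.043). Between strains, 4 of the 16 were lower in 129S1/SvImJ on chow and 6 on HFD, and 0 were higher by edgeR on either diet, shares close to the 25.0% and 37.0% of all genes called in either direction. Adgrg2 had the largest of these differences, -2.34 ± 0.56 on chow and -2.88 ± 0.45 on HFD (edgeR adjusted p = 0.00292 and 1.84e-05). Its levels were low, 0.529 ± 0.38 CPM in 129S1/SvImJ and 2.72 ± 0.937 CPM in C57BL/6J on chow. On HFD they were 0.675 ± 0.454 and 4.95 ± 2.98 CPM. Adgre1, the macrophage marker F4/80, was among them at -1.25 and -0.83. The macrophage list as a whole was lower in 129S1/SvImJ for 12 of 15 genes tested on chow and 10 on HFD, beside 25.0% and 37.0% of all genes called in either direction. Its sums were 141 to 276 CPM in 129S1/SvImJ and 337 to 522 CPM in C57BL/6J on chow, without overlap, and 174 to 392.3 CPM and 317 to 766 CPM on HFD, with overlap. The part of macrophages in the receptor differences was not tested.

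In the family of Fabp5, the genes that passed moved the other way with diet. Of 5 tested relatives, Fabp2, the intestinal form, rose by 0.83 ± 0.14 in 129S1/SvImJ and 1.63 ± 0.13 in C57BL/6J (edgeR adjusted p = 0.000419 and 7.58e-09). Fabp7, the brain form, rose by 0.99 ± 0.30 in 129S1/SvImJ, and Fabp4, the fat cell form and a neighbour of Fabp5 on the chromosome, rose by 1.59 ± 0.30 in C57BL/6J (edgeR adjusted p = 0.0314 and 0.000832). Fabp1, the main liver form, averaged 1220 ± 301 CPM on HFD and 1440 ± 463 CPM on chow in 129S1/SvImJ, and 2010 ± 636 CPM on HFD and 1710 ± 495 CPM on chow in C57BL/6J. It did not pass for diet in either strain (log2 differences of -0.23 ± 0.25 and 0.24 ± 0.23). Fabp4 is also a marker of fat cells, a list of which 5 of 8 tested genes rose in C57BL/6J and 1 in 129S1/SvImJ. The defining fat cell markers Adipoq, Lep, Plin1 and Retn did not exceed 3.28 CPM in any liver, and on chow Retn had 0 counts in 129S1/SvImJ and Lep and Plin1 had 0 in C57BL/6J. In C57BL/6J Cfd averaged 147 ± 79.8 CPM on HFD and 3.53 ± 3.53 CPM on chow, Cidec 89.4 ± 70.4 and 5.37 ± 1.65 CPM, and Cidea 17.8 ± 15.6 and 0.0679 ± 0.0799 CPM (edgeR adjusted p = 1.17e-05, 2.64e-05 and 0.000377). The 13 fat cell markers summed to 2520 to 4130 CPM on HFD and 2670 to 3380 CPM on chow, a sum made up mostly of Car3, which averaged 3000 and 2850 CPM and did not pass. The part of fat cells in these differences was not tested.

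The epidermal keratins Krt5 and Krt14 did not exceed 0.0886 CPM in any liver, the defining nerve and glia markers did not exceed 2.97 CPM, and the neuronal gene Snap25 had 0 counts in every group. Syt1, a synaptic vesicle gene on the nerve list, averaged 40.0 ± 4.31 CPM in 129S1/SvImJ and 14.1 ± 4.16 CPM in C57BL/6J on HFD, and 38.2 ± 3.97 CPM and 16.3 ± 2.77 CPM on chow. It was higher in 129S1/SvImJ, as Adam11 was, by 1.52 on HFD and 1.23 on chow on the log2 scale (edgeR adjusted p = 1.28e-08 and 2.07e-06), and the nerve list summed to 40.6 to 51 CPM against 10.9 to 22.7 CPM on HFD and to 37.7 to 47 CPM against 13.9 to 20.5 CPM on chow. The part of nerve or glia in the strain difference of Adam11 was not tested. Of 2 tested nerve and glia markers, 1 tested skin marker and 8 tested endothelial markers, 0 passed for diet in either strain by edgeR. Of 7 tested bile duct markers, 1 fell in 129S1/SvImJ and 0 changed in C57BL/6J. Of 15 tested macrophage markers, C1qa rose by 0.72 ± 0.22 in 129S1/SvImJ (edgeR adjusted p = 0.033) and 0 passed in C57BL/6J. Of 10 hepatocyte markers, 1 fell in 129S1/SvImJ and 4 fell in C57BL/6J.

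Within 200000 bases of the 6 genes, 18 other genes were tested. In 129S1/SvImJ 0 passed for diet by edgeR, beside 10.4% of all genes, and in C57BL/6J 5 passed, beside 14.9% of all genes: Eda beside Tmem28 (edgeR adjusted p = 1.52e-05), Bmyc beside Obp2a (log2 difference 0.75), Fabp4 beside Fabp5 (1.59), Pag1 beside Fabp5 (-0.28) and Ptprk beside Themis (-0.26). Eda, which encodes ectodysplasin, rose by over 1 on the log2 scale, next to a gene that was also higher on HFD.

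For each gene the 3 of the 14532 other genes with the most similar pattern, by Pearson r of log2(CPM + 0.5) over 24 livers, are given as a description. The r of the deviations from group means is added, because r over all livers mostly follows the 4 group means. Closest to Adam11 were Invs, a ciliary gene (0.95, with 0.75 for the deviations), Abcg5, a sterol exporter (0.95 and 0.44), and Acot11, an acyl-CoA thioesterase (0.94 and 0.23). Closest to Tmem28 were Cyp2d40 (0.94 and 0.77), Lpgat1 (0.93 and 0.52) and Afg3l1 (0.91 and 0.35).

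Closest to Themis was Cd36, the fatty acid uptake receptor (0.96 and 0.78), followed by Slc25a10, a mitochondrial dicarboxylate carrier (0.94 and 0.76), and 4931406C07Rik (0.94 and 0.77). Cd36 averaged 204 CPM in C57BL/6J on HFD and 48.0 on chow, and 44.0 CPM in 129S1/SvImJ on HFD and 23.3 on chow. Closest to Obp2a were Wif1, a Wnt inhibitor (0.93 and 0.51), Scarb1, the high-density lipoprotein receptor (0.91 and 0.31), and Mtap (0.90 and 0.27). Closest to Adgrf1 were Slc17a2 (0.90 and 0.68), Slco2a1, a prostaglandin transporter (0.90 and 0.71), and Elk4 (0.88 and 0.72). Fabp5 had the weakest likeness, with Pglyrp2 (0.86 and 0.55), Csad, an enzyme of taurine synthesis (0.85 and 0.47), and Hnrnpl (0.85 and 0.49).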

How the data were processed

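Per the labels' protocols, total RNA from liver was treated with DNase, depleted of ribosomal RNA and made into strand-keeping libraries. Tools listed, without roles, in the submitters' processing notes are STAR 2.5.4b, Bowtie2 2.2.3, Trimmomatic 0.36 and DESeq2 1.26.0, with build mm10; which annotation release and strand setting were used for counting is not stated. The authors deposited raw gene counts and a matrix of variance-stabilized values on a log2 scale, used here for 1 alternative. Of 53677 identifiers, 53582 matched GENCODE M21.

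The analysis used edgeR 4.0.16 (R 4.3.3) on these counts: filterByExpr kept 14533 genes, libraries were scaled by TMM, and a robust quasi-likelihood fit took 1 mean per group over all 24 libraries. Adjusted p-values are Benjamini-Hochberg over all genes tested, called under 0.05. Fold changes use a prior count of 0.125, and each SE is the unshrunk coefficient divided by the root of F. Libraries are single mice, so p-values measure the spread between mice. The group fits treat mice that share an identifier number as independent, which was not tested. Total counts limit the precision of low genes, and floors cover counting error only. Alternatives used DESeq2 1.42.0, limma 3.58.1, other scaling, no filter, a 7SK covariate and subsets of libraries. Similar transcripts were sought with BLAST 2.17.0. The procedure was tested on simulated data. No 2 libraries of a group matched within sampling noise.

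The genes, the gene and cell lists and the motifs were chosen with earlier results of these data known, and TATAAA after seeing the promoters. Besides the 6 genes, the text names up to 4 genes of a list with the smallest p in a comparison, its defining markers, the 3 genes most like each of the 6, and, chosen after their values were seen, Themis2, Grb2, Lck, Fabp1, Car3 and the neighbouring genes that passed. The values of some list genes are not reported here.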

Additional observations from a re-analysis of the deposited data

Results flagged for a closer look

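Of the 24 combinations of gene and group, 2 held a liver far from the others of its group (Dixon's test on log2(CPM + 0.5), which flags about 1 in 20 groups by chance). Both were replicate 3 of 129S1/SvImJ on HFD. Its Adam11 level of 135 CPM was the lowest of the group, and without it the group averaged 197 ± 11 CPM (SD, n = 5). Its Fabp5 level of 23.5 CPM was the highest, and without it the group averaged 5.01 ± 1.35 CPM.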

How the results depend on the processing

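Other scaling, no filter on low counts and the 7SK covariate left the direction of every diet and strain difference of the 6 genes, and the side of 0.05 of every strain difference, as reported. With DESeq2, Themis on chow (-1.68) and Adgrf1 on HFD (-1.83) passed between strains. Themis on chow also passed in a fit to the 2 groups alone (-1.65) and without 129S1/SvImJ HFD 3 and C57BL/6J HFD 6 (-1.64), and Adgrf1 on HFD without the 2 libraries with fat cell transcripts (-2.00). Replicate numbers do not pair the mice (median correlation 0.15 for the same number and -0.03 for others, 33 pairs from -0.29 to 0.37); with them as a replicate block, Themis on chow passed (-1.88). The cause of these changes was not tested.

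On the variance-stabilized scale, Tmem28 (1.38 in both strains) and Themis (0.85 in 129S1/SvImJ, 2.36 in C57BL/6J) had smaller diet differences, and the diet difference of Tmem28 between strains was -0.01. Within low 7SK (10 libraries, a division made after seeing the data), diet in C57BL/6J gave 2.61 for Tmem28 and 2.72 for Obp2a, the strain differences of Fabp5 on chow (-1.58) and Tmem28 on HFD (-0.84) were lost, and the diet difference between strains of Obp2a was 0.55. Within high 7SK (14 libraries), Obp2a gave -0.08 for diet in C57BL/6J, 0.97 for strain on chow (lost) and 3.64 between the diet differences, Adgrf1 on chow (-2.87) was lost, and 3 of 6 genes were called on chow. Fewer libraries entered each of these fits.

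Leaving out both livers named above gave -1.55 for Fabp5 diet in 129S1/SvImJ, and leaving out 129S1/SvImJ HFD 3 and 6 gave -1.66, with 1.05 for its diet difference between strains. Leaving out 1 library at a time moved Fabp5 diet in 129S1/SvImJ between -1.55 and -0.67, Obp2a diet in C57BL/6J between 0.40 and 1.67, Themis on chow between -1.79 and -1.51 (passing without C57BL/6J HFD 6), Adgrf1 on HFD between -2.06 and -0.85 (passing without 129S1/SvImJ HFD 3 or C57BL/6J HFD 1, 2, 5 or 7), and the diet difference between strains of Obp2a between 1.33 and 2.60 and of Fabp5 between 1.17 and 2.05.

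Genes called for diet in 129S1/SvImJ numbered 1514, 937 without chow replicate 1, and 305 and 283 within low and high 7SK; in C57BL/6J they numbered 2159, and 312 and 784. Genes called between strains on chow numbered 3636, and 2008 and 1338; on HFD 5375, and 1549 within low 7SK. Depth limits Tmem28 and Themis in 129S1/SvImJ on chow and Obp2a in C57BL/6J, with few counts per library.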
